A study of Mus musculus with 4 samples.

Results

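The HoxA cluster genes are the homeobox transcription factor genes of mouse chromosome 6, and the members described here are Hoxa2, Hoxa3, Hoxa4, Hoxa5, Hoxa6, Hoxa7, Hoxa9, Hoxa10, Hoxa11 and Hoxa13. They were taken by gene symbol from a table of read counts, and all 10 were found among its 25239 genes. RNA had been sequenced from sorted cells of FVB mouse hindlimb buds at embryonic day 11.5. All embryos are labelled wild-type and carried the same reporter, hsp68-hZRS(404G>A)-mCherry at the H11 locus, in which a variant of the human ZRS (the limb enhancer of Shh) is coupled to the hsp68 promoter and the red fluorescent protein mCherry. Anterior cells positive for mCherry (2 libraries) were compared with central cells negative for mCherry (2 libraries), so that position in the limb and reporter activity differ together and cannot be told apart. Both groups carry the transgene, and the number of embryos behind each library is not given in the sources used here, so p-values measure the spread between these libraries, which may be technical.

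Hox genes are arranged in clusters in which the order along the chromosome follows the order of expression in the embryo: genes with low numbers are used early and towards the head, and genes with high numbers late, towards the tail and the tip of the limb. In the limb, Hoxa9 and Hoxa10 are associated with the upper segment, Hoxa11 with the middle segment and Hoxa13 with the hand or foot plate, where HOXA13 and HOXD13 act together in digit formation. The antisense transcript Hoxa11os is known from the distal bud, where it is made across the 5' part of Hoxa11.

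In the GRCm38 annotation (GENCODE M21) the members span 98.5 kb, at chr6:52162417-52260880, and are all on the minus strand. Hoxa2 lies at one end and Hoxa13 at the other. The noncoding genes Hotairm1, Hoxaas2, Hoxaas3, Hoxa11os and Hottip lie on the plus strand between or beside them, and Evx1, an even-skipped type homeobox gene, lies beyond Hoxa13. Exons of Hoxa11os cover 34.98% of the exon bases of Hoxa11 on the opposite strand, and opposite-strand exons also cover 25.42% of Hoxa3, 20.38% of Hoxa7 and 16.0% of Hoxa4. Hoxa5, Hoxa6, Hoxa10 and Hoxa13 share no exon base with another gene. Whether the counting used strand is not given in the sources used here, so the counts of overlapping genes are uncertain.

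Library totals were between 30080925 and 33257383 counts, and the members held between 22502 and 32185 of them per library. Between 72.8% and 75.6% of counts from 1 to 10 were even numbers. Of 10 limb mesenchyme markers, 6 were called higher and 1 lower in anterior cells by the test described below. The 3 not called were the general regulator Prrx1 (696 ± 28.8 CPM in anterior and 661 ± 28.2 CPM in central cells, SD, n = 2; CPM are counts relative to the library total, after TMM scaling) and for the hindlimb genes Pitx1 (442 ± 11.2 and 456 ± 37.5) and Tbx4 (231 ± 9.21 and 254 ± 19.4). Called higher were Msx1 (9.56-fold), Lhx2 (6.27-fold), Lhx9 (6.08-fold), Prrx2 (3.75-fold), Tfap2b (3.41-fold) and Twist1 (1.77-fold). Pdgfra was called lower, at 258 ± 27.7 CPM in anterior against 582 ± 15.4 CPM in central cells. Markers of other cell types differed as well, beside 10.7% of all tested genes called higher and 12.3% called lower. The summed level of the 8 myogenic markers was 18.6 and 9.61 CPM in anterior against 238 and 216 CPM in central libraries, with 8 of 8 called lower in anterior cells and Myog at 0 counts there, which allows up to 0.0899 and 0.102 CPM (3 counts per library). Surface ectoderm markers (7 of 8 called lower) summed to 9.71 and 10.1 against 49.4 and 151 CPM, endothelial markers (5 of 8 lower) to 10.5 and 17 against 34.4 and 43.5, and cartilage markers (4 of 6 tested lower) to 412 and 301 against 1500 and 1190. Of the 6 neural crest and Schwann markers, 4 were tested, 2 were lower and 1 was higher, their sums were 54.1 and 38.7 against 41 and 29.2 CPM, and Sox10 was at 0 counts in both anterior libraries. Blood markers (8 of 9 tested higher in anterior cells) summed to 3300 and 8390 against 9.55 and 12.9 CPM; with this list removed before scaling, the same number of members, 6, was called. The part of the other cell types in the HoxA values was not tested, and in bulk RNA fewer cells of a type cannot be told apart from less RNA per cell.

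Most HoxA genes were higher in anterior than in central cells. All 10 members passed the filter on low counts, and Hoxa3, Hoxa5, Hoxa6, Hoxa9, Hoxa10 and Hoxa13 rose, 6 in all. A gene was called where its p-value from the quasi-likelihood test of edgeR, adjusted by the Benjamini-Hochberg method over the 14610 genes tested, was below 0.05. No member was called lower. Among all tested genes, 10.7% were called higher, 12.3% lower and 22.9% in either direction. Both anterior libraries lay above both central ones for 9 members, the exception being Hoxa11. Of tested genes, 30.8% were placed that way and 63.5% had no overlap in either direction. The log2 fold change was above 0 for all 10 members and for 48.8% of tested genes. A called rise of at least 1.5-fold was seen in 4 members (Hoxa3, Hoxa5, Hoxa6 and Hoxa13) and in 3.92% of tested genes, and one of at least 2-fold in Hoxa13 and 2.34% of tested genes. The median log2 fold change of the members was 0.49, beside -0.009 for all tested genes. Summed over the members, the level was 965 and 1080 CPM in anterior libraries against 731 and 723 CPM in central ones. Without anterior replicate 2 the number of members called was 4, and without anterior replicate 1 it was 5.

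**Figure D1:**
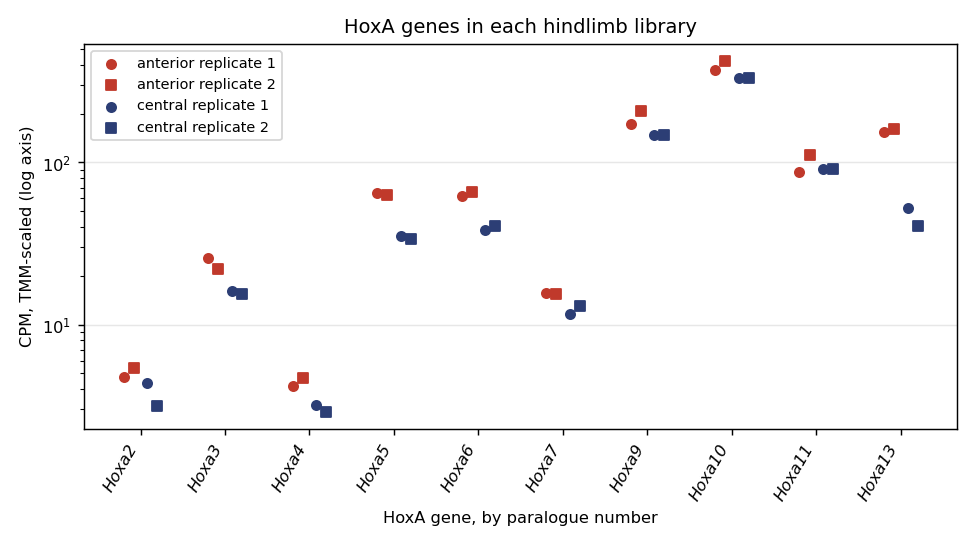
TMM-scaled CPM (log axis) of each HoxA gene in the 4 libraries, with anterior libraries in red and central libraries in blue, and circles and squares for replicates 1 and 2. The red points lie above the blue ones for 9 genes and are mixed with them for Hoxa11, and the gap is widest for Hoxa13, at 155 and 161 CPM against 52.7 and 40.7 CPM.

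Hoxa13, which acts in the foot plate, differed most. Its counts were 5177 and 4726 in anterior cells, or 155 and 161 CPM, against 1624 and 1319 in central cells, or 52.7 and 40.7 CPM. The groups were far apart and the anterior replicates nearly equal. Expression was 3.38-fold higher in anterior cells (log2 fold change 1.76 with SE 0.11, adjusted p-value 1.6e-05 by edgeR), and 1.44% of tested genes had a log2 fold change as large or larger. It was also called when the test was set against a 1.5-fold change (edgeR adjusted p-value 7.41e-05). Only Hoxa5 among the other members passed that test (adjusted p-value 0.0109).

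Transcribed genes next to Hoxa13 were higher in anterior cells too. Hottip, a long noncoding RNA that starts upstream of Hoxa13 on the other strand, measured 53 and 47.1 CPM in anterior libraries against 17.1 and 12.6 CPM in the central pair (log2 fold change 1.75, adjusted p-value 6.71e-05 by edgeR). Evx1 measured 90.8 and 93.5 CPM against 17 and 13.1 CPM and was 6.12-fold higher (log2 fold change 2.61, adjusted p-value 3.6e-06). Its antisense neighbour Evx1os, named after its values were seen, measured 77.4 and 86.6 CPM against 18.5 and 12.4 CPM (log2 fold change 2.41, adjusted p-value 2.33e-05). The antisense gene Hoxa11os, between Hoxa11 and Hoxa13, was at 278 and 279 CPM in anterior libraries against 152 and 125 CPM in central ones, a 2.01-fold difference (log2 fold change 1.004, adjusted p-value 0.000114).

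The 250 bases before the RefSeq start sites (build GRCm38.p6) of Hoxa13 and its neighbours Hottip, Evx1 and Evx1os, which had the largest log2 fold changes of the locus, and of Hoxa11, whose groups overlapped, are shown to set the start regions side by side. Capitals mark matches, on either strand, to CAATAAA (a sequence of the type bound by HOX13 proteins), TGACAG (the type bound by MEIS proteins), TATAAA (the classical core promoter element) and CCAAT (an element named after its letters). The first and the last of these can overlap.
Hoxa11, chr6:52245811-52246060, strand -: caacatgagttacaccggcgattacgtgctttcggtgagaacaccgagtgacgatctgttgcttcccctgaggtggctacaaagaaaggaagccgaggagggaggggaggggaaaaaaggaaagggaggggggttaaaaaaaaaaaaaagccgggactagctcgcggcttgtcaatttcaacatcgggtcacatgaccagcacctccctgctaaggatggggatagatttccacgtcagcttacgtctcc
Hoxa13, chr6:52260881-52261130, strand -: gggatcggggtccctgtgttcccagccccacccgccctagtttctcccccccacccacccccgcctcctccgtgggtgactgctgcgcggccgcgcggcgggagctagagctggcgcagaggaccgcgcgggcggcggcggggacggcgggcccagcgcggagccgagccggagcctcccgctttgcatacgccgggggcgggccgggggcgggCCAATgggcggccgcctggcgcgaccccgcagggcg
Hottip, chr6:52262525-52262774, strand +: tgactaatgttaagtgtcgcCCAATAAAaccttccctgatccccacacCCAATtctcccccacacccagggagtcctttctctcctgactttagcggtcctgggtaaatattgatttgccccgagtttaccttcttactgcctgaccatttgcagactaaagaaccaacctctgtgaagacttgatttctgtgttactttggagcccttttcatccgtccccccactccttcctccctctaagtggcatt
Evx1, chr6:52313248-52313497, strand +: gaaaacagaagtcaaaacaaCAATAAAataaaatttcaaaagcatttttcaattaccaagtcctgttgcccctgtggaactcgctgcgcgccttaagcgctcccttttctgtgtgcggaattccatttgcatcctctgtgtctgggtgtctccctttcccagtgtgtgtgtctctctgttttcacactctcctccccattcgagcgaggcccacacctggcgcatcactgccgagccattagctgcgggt
Evx1os, chr6:52314833-52315082, strand -: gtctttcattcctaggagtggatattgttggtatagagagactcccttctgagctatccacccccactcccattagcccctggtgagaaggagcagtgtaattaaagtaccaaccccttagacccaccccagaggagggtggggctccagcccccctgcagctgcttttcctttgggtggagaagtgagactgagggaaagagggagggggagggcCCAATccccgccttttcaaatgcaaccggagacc
Of 32851 promoters in the RefSeq table, 4.2% held CAATAAA, 15.9% TGACAG, 12.4% TATAAA and 33.8% CCAAT in the same window. Hottip and Evx1 each had 1 match to CAATAAA, Evx1os had none to it, Hottip had 2 and Hoxa13 and Evx1os had 1 each to CCAAT, and Hoxa11 had no match to any of the 4 sequences. Start regions were listed for 9 members (10 windows, since Hoxa10 has 2), and of these 10 windows none held CAATAAA, 2 held TGACAG (those of Hoxa2 and Hoxa3), 1 held TATAAA and 5 held CCAAT. The window of Hoxa13 was the richest in G and C among the members, at 80.0% with 35 CpG dinucleotides, beside medians of 57.0% and 15.5 over the member windows and 52.4% and 6.0 over all promoters. These letter matches describe the windows and say nothing of binding.

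Hoxa11, required with Hoxd11 for the middle limb segment, was not called. Its counts were 2922 and 3251 in anterior cells (87.6 and 111 CPM) against 2813 and 2952 in central cells (91.3 and 91.2 CPM). The anterior values lay on either side of the central ones. The log2 fold change was 0.12 ± 0.11 (SE), with a 95% interval from -0.12 to 0.36 and an edgeR adjusted p-value of 0.472, and its sign turned to -0.053 without anterior replicate 2.

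Hoxa10, which patterns the upper limb segment with its paralogues, was at 371 and 420 CPM in anterior and 331 and 334 CPM in central cells. Its rise of 1.19-fold was the smallest that passed (log2 fold change 0.25 with SE 0.072, adjusted p-value 0.0386 by edgeR). The call was lost without anterior replicate 2 (adjusted p-value 0.371) and with library size alone or upper-quartile scaling (0.0531 and 0.0634). Hoxa9, of the paralogue group used at the base of the limb and in its early posterior patterning, measured 174 and 208 CPM against 147 and 148 CPM. It rose 1.3-fold (log2 fold change 0.37 with SE 0.087, adjusted p-value 0.0157 by edgeR), and this call too was lost without anterior replicate 2 (adjusted p-value 0.162). The central replicates of both genes nearly coincided, whereas anterior replicate 2 stood above anterior replicate 1.

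Members with lower numbers, best known for patterning of the head, neck and trunk, included 3 that rose. Hoxa5, which patterns the neck and thorax and the lung, measured 64.8 and 63.3 CPM in anterior libraries against 35.2 and 33.7 CPM in central ones. It was 1.86-fold higher in anterior cells (log2 fold change 0.89 with SE 0.082, adjusted p-value 0.000123 by edgeR), the largest rise after Hoxa13. Hoxa6, an axial patterning gene next to it, was at 62.2 and 66.2 CPM against 38.3 and 40.6 CPM and rose 1.63-fold (log2 fold change 0.70 with SE 0.085, adjusted p-value 0.000604 by edgeR). For both genes the gap between groups was wider than the distance between replicates. Hoxa3, which patterns the pharyngeal arches and the organs made from them, measured 25.7 and 22.1 CPM against 16.1 and 15.5 CPM and rose 1.51-fold (log2 fold change 0.59 with SE 0.13, adjusted p-value 0.0106 by edgeR). That call was lost without anterior replicate 1 (adjusted p-value 0.0692).

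The remaining 3 members did not pass the test, although their groups did not overlap. Hoxa7, an axial patterning gene, measured 15.6 and 15.5 CPM in anterior and 11.6 and 13.1 CPM in central cells (log2 fold change 0.34, 95% interval 0.009 to 0.66, edgeR adjusted p-value 0.133). Hoxa4, which acts in the neck vertebrae, was at 4.17 and 4.7 CPM against 3.18 and 2.9 CPM (log2 fold change 0.54, interval -0.067 to 1.15, adjusted p-value 0.187). Hoxa2, the patterning gene of the second pharyngeal arch, was at 4.74 and 5.39 CPM against 4.35 and 3.15 CPM (log2 fold change 0.43, interval -0.18 to 1.05, adjusted p-value 0.297). Hoxa2 and Hoxa4 had the fewest counts of the members, between 94 and 158 per library, and the widest standard errors, and their intervals hold both 0 and the value of Hoxa3.

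**Figure D2:**
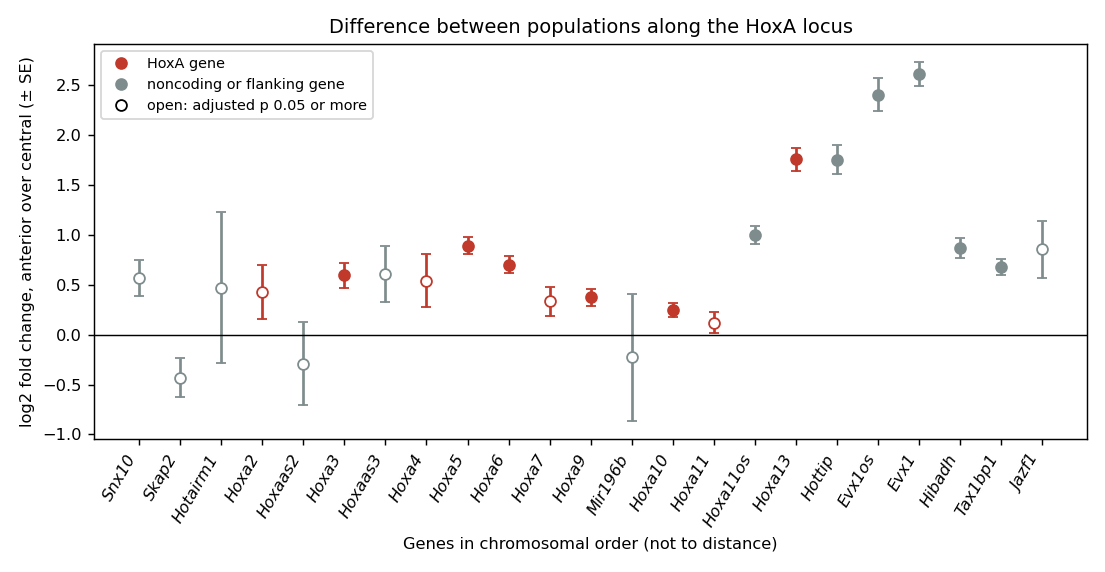
Log2 fold change of anterior over central cells (± SE of the edgeR fit, 2 libraries per group) for the tested genes in chromosomal order, with HoxA genes in red, other genes in grey, and open symbols where the adjusted p-value was 0.05 or more. Hoxa7 to Hoxa11 (0.12 to 0.37) lie below Hoxa5 (0.89), and Hoxa11os (1.004), Hoxa13 (1.76) and Evx1 (2.61) lie above it. The sign for Hoxa11 turned without anterior replicate 2.

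Along the cluster, the largest estimated differences lay at Hoxa13 and Hoxa5, with smaller ones between them. The 95% intervals of Hoxa5 (0.706 to 1.082) and Hoxa6 (0.508 to 0.895) overlapped, so the order of this pair is not settled. Across the 10 members, which share the same libraries, the log2 fold change and the paralogue number had a Spearman correlation of -0.22 (Pearson 0.25), given as a description. Leaving out Hoxa13, a choice made after its value was seen, the coefficients over 9 genes were -0.68 and -0.64. Members numbered 2 to 7 had a median log2 fold change of 0.57 with 3 of 6 called. Those numbered 9 to 13 had a median of 0.31 with 3 of 4 called, beside 10.7% of all tested genes called higher. These sets were not compared by a test.

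Of the 13 listed noncoding and flanking genes, 11 were tested, with a median log2 fold change of 0.68. Beside 10.7% of all tested genes called higher and 12.3% lower, 5 of them were higher in anterior cells and none was lower. Beyond Hottip, Evx1 and Hoxa11os, these were the more distant neighbours on the Evx1 side, Hibadh, an enzyme of valine breakdown, at 71 ± 3.13 against 38.8 ± 4.91 CPM (adjusted p-value 0.00051 by edgeR, log2 fold change 0.87), and Tax1bp1, an autophagy adaptor, at 236 ± 7.82 against 147 ± 13.7 CPM (0.68, adjusted p-value 0.000442; SD, n = 2). Jazf1, a zinc finger gene farther out, was at 8.12 ± 1.07 against 4.49 ± 1.73 CPM (adjusted p-value 0.0642). At the Hoxa2 end, Skap2 was at 8.22 ± 0.903 against 11.1 ± 2 CPM (adjusted p-value 0.154), Snx10 at 12.8 ± 2.06 against 8.6 ± 0.191 CPM (0.0501, at the threshold), and the antisense transcripts Hotairm1, Hoxaas2 and Hoxaas3 at 0.522, 1.38 and 5.9 CPM in anterior and 0.379, 1.69 and 3.86 CPM in central cells, none of them called. Halr1 had no counts and was not tested.

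Levels of different members can be compared per length only. In CPM per kilobase of merged exons, Hoxa10 was the most abundant member in every library, at 113 and 128 in anterior and 101 and 102 in central cells. Hoxa6 followed at 73.5 ± 3.28 and 45.2 ± 1.82 (mean ± SD, n = 2). In anterior cells the next genes were Hoxa13 at 64.0 ± 1.68, Hoxa11 at 43.4 ± 7.18, then Hoxa9 at 34.3 ± 4.33 and Hoxa5 at 34.1 ± 0.561, whose ranges overlapped. In central cells Hoxa11 at 39.9 ± 0.0446 and Hoxa9 at 26.4 ± 0.16 came before Hoxa13 at 18.9 ± 3.43 and Hoxa5 at 18.4 ± 0.551, and the ranges of the last pair overlapped. Hoxa7, Hoxa3, Hoxa2 and Hoxa4 were far lower, between 1.78 and 5.43 in any library, and Hoxa2 and Hoxa4 were not separated from each other in either population. Hoxa13 thus had rank 3 among the members in both anterior libraries and rank 5 or 6 in the central ones. It made up 17.1% and 16.1% of the summed level per kilobase in anterior cells against 8.12% and 6.33% in central cells, while the part of Hoxa10 was 31.0% and 31.8% against 38.5% and 39.3%. The level per kilobase was higher at higher paralogue numbers (Spearman 0.75 and Pearson 0.75 across the 10 members, as a description).

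**Figure D3:**
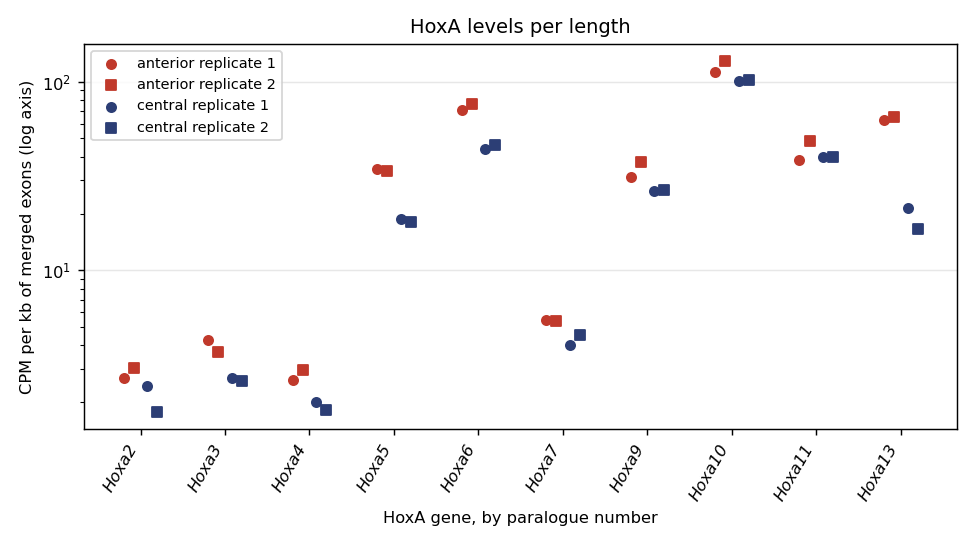
CPM per kilobase of merged exons (log axis) for each HoxA gene in the 4 libraries, coloured by population. With these lengths Hoxa10 is highest in all libraries (101 to 128), Hoxa6 has rank 2, and Hoxa13 moves from 62.8 and 65.2 in anterior to 21.3 and 16.5 in central cells.

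The order depends on which exons are counted. By group mean, Hoxa10 ranked highest and Hoxa4 lowest with each of 4 length definitions in both populations. With the transcripts that are paired with a RefSeq accession, the anterior level of Hoxa13 became 121 and that of Hoxa9 59.3, and Hoxa13 had rank 2. These lengths were 1309 bases for Hoxa13 and 3142 for Hoxa10. With them the anterior ranges of Hoxa10 and Hoxa13 overlapped, so the top rank of Hoxa10 was not separated there. With exon bases not shared with another gene, the anterior mean of Hoxa11 became 66.7, against a mean of 64.0 for Hoxa13. In central cells Hoxa6 had rank 2 with merged exons and rank 3 with each of the 3 other definitions, behind Hoxa9 at 45.7 (longest or RefSeq-paired transcripts) or Hoxa11 at 61.4 (unshared bases). The RefSeq model of Hoxa6 also reaches 1430 bases further at its 3' end than the one used here (874 exon bases), and whether the counts hold reads from those bases was not tested.

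Ratios between genes within a library do not depend on the scaling between libraries. The level of Hoxa13 relative to Hoxa11, as a log2 ratio of levels per kilobase, was 0.71 and 0.43 in anterior libraries against -0.90 and -1.27 in central ones. The ratio shifted 3.16-fold, a value that does not depend on the lengths used. The order of their anterior group means does: with exon bases not shared with another gene, Hoxa11 was at 66.7 and Hoxa13 at 64.0. Hoxa11 varied more between the anterior libraries (87.6 and 111 CPM) than Hoxa13 (155 and 161 CPM), so these means are not shown to be separated. The same ratio of Hoxa13 to Hoxa10 was -0.85 and -0.98 against -2.25 and -2.63, and that of Hoxa13 to Hoxa9 was 1.01 and 0.80 against -0.30 and -0.69. Hoxa11os relative to Hoxa11 was 1.24 and 0.91 against 0.31 and 0.03, a 1.87-fold shift. For these 4 ratios the groups did not overlap, and the two-sided exact permutation p-value was 0.33, the smallest that 2 against 2 libraries allow (0.667 after Benjamini-Hochberg adjustment over 8 ratios). With this test no ratio could fall under 0.05, so it does not bear on the size of the shifts.

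For the members numbered 9, 10, 11 and 13, the ratios to the HoxD gene of the same number overlapped between the populations. The log2 ratio of Hoxa13 to Hoxd13 was -2.45 and -2.06 in anterior libraries against -2.53 and -2.29 in central ones. Hoxa11 to Hoxd11 gave -0.76 and -0.46 against -0.33 and -0.71, Hoxa10 to Hoxd10 gave 0.62 and 0.86 against 0.87 and 0.79, and Hoxa9 to Hoxd9 gave 0.24 and 0.18 against 0.23 and 0.15. In all 4 pairs the groups overlapped (exact permutation p-value 0.667 each, unadjusted and adjusted), and the group means differed by 0.020 to 0.15 in size on the log2 scale. The sign of that difference turned in 1 of 4 omissions of a library for Hoxa13 to Hoxd13 and Hoxa10 to Hoxd10, and in 2 of 4 for the other pairs. With 2 libraries a group, these values do not show that the ratios are alike.

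**Figure D4:**
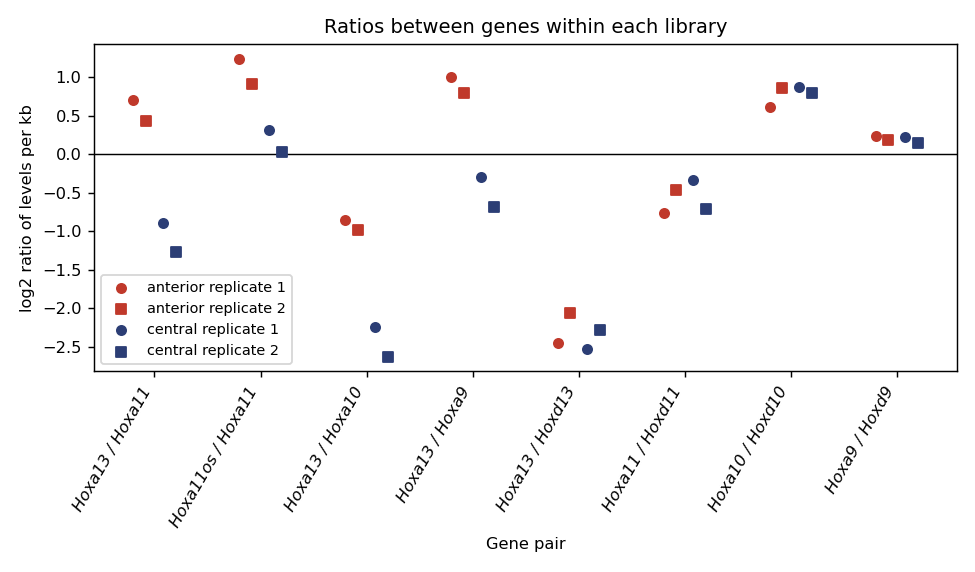
Log2 ratio of levels per kilobase for 8 gene pairs in each library, coloured by population. The 4 pairs on the left (Hoxa13 or Hoxa11os over Hoxa11, Hoxa10 or Hoxa9) separate anterior from central libraries, and the 4 pairs of HoxA over HoxD genes on the right do not.

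The HoxD cluster had calls in both directions, beside 10.7% higher and 12.3% lower among all tested genes. Of 8 HoxD genes tested, Hoxd13, Hoxd12 and Hoxd10 rose (log2 fold changes 1.59, 0.98 and 0.34, edgeR adjusted p-values 0.000404, 0.00123 and 0.0091) and Hoxd3 and Hoxd4 fell (-1.57 and -0.73, adjusted p-values 0.00711 and 0.0348). Hoxd9, Hoxd11 and Hoxd8 had log2 fold changes of 0.35, 0.19 and -0.031 and were not called (adjusted p-values 0.051, at the threshold, 0.246 and 0.933). Hoxd4 was not called without anterior replicate 1 or without central replicate 2 (adjusted p-values 0.105 and 0.0666), and Hoxd10 was not called without anterior replicate 1 (0.0714). Of 8 HoxB genes tested, 7 were lower and 1, Hoxb9, was higher (13.3 ± 1.55 against 7.55 ± 1.59 CPM, edgeR adjusted p-value 0.0192). The 7 lower genes had central means of at most 7.53 CPM. Of them, Hoxb2, Hoxb4, Hoxb5 and Hoxb7 had 0 to 14 counts in anterior and 34 to 75 in central libraries. They passed the filter on low counts through the central libraries, so their direction followed from how they were admitted. Hoxc13 (4 and 4 against 36 and 90 counts) passed in the same way. Of 8 HoxC genes tested, 5 were lower and none was higher, among them Hoxc11, at 12.3 ± 1.18 against 37.5 ± 7.19 CPM (adjusted p-value 0.000137), and Hoxc8, at 5.78 ± 1.27 against 10.6 ± 2.31 CPM (0.0306; SD, n = 2).

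Same-number pairs outside the 8 ratios above were compared after these values were seen, for every HoxB, HoxC or HoxD paralogue with a mean of at least 1 CPM. In 12 of 13 pairs both anterior libraries had a higher ratio of the HoxA gene to its paralogue than both central ones (exact permutation p-value 0.33 each, adjusted 0.361), the exception being Hoxa9 to Hoxb9. The direction followed from the fold changes already given, in which HoxA genes lay above 0 and these paralogues, except Hoxb9, below it. The count is therefore no separate support. How many pairs of other genes would separate this way was not tested. Some paralogues had few anterior counts, such as Hoxc13 with 4 and 4 and Hoxb7 with 4 and 8. The log2 ratio of Hoxa3 to Hoxd3 was 3.02 and 1.99 in anterior and 0.56 and 0.08 in central cells, and that of Hoxa4 to Hoxd4 was -0.82 and -1.27 against -2.06 and -2.61. For Hoxa5 to Hoxc5 it was 4.32 and 3.97 against 2.60 and 2.47. The ratio of Hoxa6 to Hoxb6 shifted from 4.83 and 4.71 in central cells to 8.14 in both anterior libraries, with Hoxb6 at only 0.496 ± 0.0223 CPM in anterior and 3.24 ± 0.311 CPM (SD, n = 2) in central cells.

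**Figure D5:**
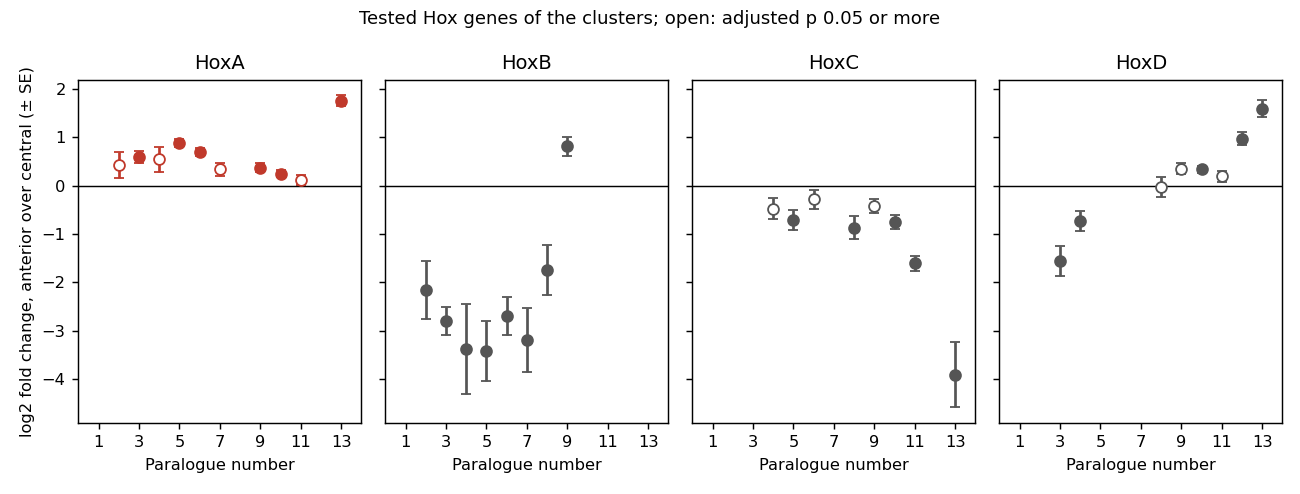
Fold change of anterior over central cells on the log2 scale (± SE of the edgeR fit, 2 libraries per group) against paralogue number for the tested genes of the HoxA, HoxB, HoxC and HoxD clusters, with open symbols where the adjusted p-value was 0.05 or more. All 10 HoxA genes lie above 0 (Hoxa11 at 0.12 turned sign without anterior replicate 2), the HoxD genes lie on both sides, and the HoxC genes and all HoxB genes but Hoxb9 lie below it. Hoxb2, Hoxb4, Hoxb5, Hoxb7 and Hoxc13 passed the filter on low counts through the central libraries.

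HOX proteins bind DNA with TALE homeodomain partners of the MEIS, PBX and PKNOX families, and MEIS proteins mark the proximal limb. Of the 9 such genes, all tested, 5 were lower in anterior cells and none was higher, with a median log2 fold change of -1.25. Over all tested genes, 12.3% were called lower and 10.7% higher. Meis1 was at 6 and 1.77 CPM in anterior and 95 and 79.9 CPM in central cells, and Meis2 at 11 and 2.05 against 128 and 131 CPM (log2 fold changes -4.46 and -4.27, edgeR adjusted p-values 4.86e-05 and 0.000329). Both stood higher in anterior replicate 1 than in replicate 2. Pbx3 fell from 49.5 ± 5.73 to 32.2 ± 1.66 CPM and Pknox2 from 34.4 ± 0.0199 to 14.5 ± 2.47 (SD, n = 2), with adjusted p-values of 0.00368 and 0.000281. Pbx2, Pbx4 and Pknox1 were not called (222, 2.31 and 52.1 CPM in anterior against 245, 3.66 and 45.5 CPM in central cells). Meis3 had 64 and 0 counts in the anterior libraries, or 1.92 and 0 CPM, against 4.84 and 4.26 CPM in central cells, and was not called (adjusted p-value 0.135). Without anterior replicate 1 (4.39e-06) or central replicate 2 (0.0438), with the replicate block (0.0234), by limma-voom (0.0415) and with no filter beyond 1 count (0.015) its adjusted p-value fell under 0.05, and by the DESeq2 Wald test it was 0.655. Beside 12.3% of all tested genes, the wider proximal limb list was lower in 8 of 8 genes, with a median log2 fold change of -4.71. Of these, Irx3 measured 1.08 ± 0.759 against 57.6 ± 12.1 CPM and Irx5 0.454 ± 0.545 against 28.7 ± 9.9 CPM (SD, n = 2).

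Genes proposed as targets of HOXA13 were called in both directions. Of 8, all tested, 2 rose (Hoxa11os, above, and Bmp7, a bone morphogenetic protein, at 96.9 ± 2.1 against 68.2 ± 0.487 CPM, edgeR adjusted p-value 0.00139) and 3 fell. Among the latter, Sostdc1, a BMP and Wnt antagonist, was at 0.539 ± 0.425 against 11.8 ± 0.212 CPM and Enpp2, which makes lysophosphatidic acid, at 4.01 ± 0.792 against 26.5 ± 0.186 CPM (adjusted p-values 0.000137 and 1.34e-05; SD, n = 2). The median log2 fold change of the list was -0.81, and over all tested genes 10.7% were called higher and 12.3% lower.

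Retinoic acid and FGF signals act upstream of limb Hox genes. Of 17 genes of these pathways tested, feedback inhibitors included, 9 rose and 5 fell in anterior relative to central cells. Over all tested genes, 10.7% were called higher and 12.3% lower. The list had a median log2 fold change of 0.39. The FGF feedback inhibitors Spry1 and Spry4 measured 145 ± 24.5 and 158 ± 16.6 CPM in anterior cells and 35.8 ± 0.187 and 39.3 ± 6.81 CPM in central cells (edgeR adjusted p-values 8.19e-06 and 1.22e-05; SD, n = 2). The ridge ligands Fgf8 and Fgf9, which are made in the ectoderm, were lower, at 0.24 and 0.0682 against 5.75 and 29.2 CPM, and 0.39 and 0.273 against 12.6 and 13.3 CPM (adjusted p-values 0.0012 and 7.24e-06). Surface ectoderm markers were lower in the same libraries. Their sums in the central replicates were 49.4 and 151 CPM, between which Fgf8 differed and Fgf9 hardly did. The part of the ectoderm in the values of either gene was not tested.

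The genes whose pattern was most like that of Hoxa13 were sought by the Euclidean distance between profiles of log2(CPM + 0.5) over the 4 libraries, each centred on its mean, among 10597 tested genes outside the members with a mean of at least 5 CPM. The nearest were Eps8, an actin regulator (distance 0.0393), Kctd6 (0.149), Mtss1 (0.151), the limb mesenchyme homeobox gene Prrx2 (0.155) and Hottip (0.164). Their log2 fold changes were between 1.75 and 1.91. For Hoxa11 the nearest were Gtf3a, H2aj, Magee2, Rmdn3 and Snhg20, at distances of 0.0346 to 0.055, none of them called.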

How the data were processed

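RNA from sorted hindlimb cells was sequenced by paired-end reads, per the labels' protocols. The authors deposited whole-number read counts per gene symbol, not normalized, and these counts were used as deposited. The submitters' processing notes name STAR 2.7.9a, HTSeq and the build mm10, with no roles given. Strand setting and annotation are not given in the sources used here. Count columns were matched to sample titles by domain and number, with 0 columns unmatched.

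Counts were filtered by filterByExpr, scaled by TMM and compared between groups with edgeR 4.0.16 (R 4.3.3), using the quasi-likelihood F test without a block and Benjamini-Hochberg adjustment over 14610 genes, at a threshold of 0.05. The standard error is the absolute log2 fold change over the square root of F. No library pair agreed within sampling noise (chi-square per degree of freedom of 15.1 between anterior and 8.46 between central replicates, on halved counts). Ratios within a library used counts plus 0.5 per kilobase of merged GENCODE M21 exons, with an exact permutation test over libraries. The pipeline was tested on simulated data. Promoter sequences are from RefSeq (GRCm38.p6).

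The members and gene lists were chosen with earlier results of these data known. All members were named, with all tested genes of the noncoding and flanking, HoxD and Meis, Pbx and Pknox lists, and from each other list up to 2 called genes in each direction, those with the largest changes at a mean of at least 5 CPM. Some genes of these lists are not reported here by name. Alternatives tried were upper-quartile factors, library size alone, DESeq2 1.42.0 (its size factors, and its Wald test), limma-voom (limma 3.58.1), keeping any gene with 1 count, requiring a mean count of 50, a replicate block, halved counts, removal of blood markers, stricter thresholds, other lengths and each library left out. The last 2 length definitions in the text (RefSeq-paired transcripts and unshared exons) were added after the data were seen.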

Additional observations from a re-analysis of the deposited data

How the results depend on the processing

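Under the 10 scalings, tests, filters, the block, halved counts and removal of blood markers, the direction of all 10 members and the calls of 9 held; Hoxa10 was not called with library size alone (0.217, edgeR adjusted p-value 0.0531) or upper-quartile factors (0.211, 0.0634), out of a range of 0.011 to 0.0634. Upper-quartile factors moved the share of calls that were higher from 46.5% to 39.1%. A threshold of 0.01 left 3 members of 1690 called genes, and the test against a 1.5-fold change left 2 of 1035, against 6 of 3351. Fits that left out 1 library, in which the lone library is assumed to vary like the other group, gave 4 to 6 members and 2009 to 3697 genes, the fewest without anterior replicate 2. In these fits the log2 fold change was 0.484 to 0.705 for Hoxa3, 0.245 to 0.501 for Hoxa9, 0.163 to 0.339 for Hoxa10 and -0.053 to 0.284 for Hoxa11. The anterior minus central log2 ratios were -0.038 to 0.344 for Hoxa13 to Hoxd13, -0.284 to 0.096 for Hoxa11 to Hoxd11, -0.210 to 0.027 for Hoxa10 to Hoxd10 and -0.018 to 0.059 for Hoxa9 to Hoxd9. Among other named genes, signs turned for Hotairm1 (-0.875 to 1.143), Hoxd8 (-0.423 to 0.289) and Hoxaas2 (-0.547 to 0.018), none of them called. Hoxd9 and Snx10, just above the threshold, were each called in 5 of the 10 alternatives. For these changes the cause was not tested. With the replicate block, 6 members of 3586 genes were called and Hoxa13 had a log2 fold change of 1.768; the block changed no member's call and, among other named genes, added calls for Hoxd9, Snx10, Jazf1 and Meis3. The numbers are only shared labels: replicate differences in the groups correlated at 0.064 across genes. Hoxa2 and Hoxa4 had 94 to 158 counts per library and the widest standard errors of the members, and the part of depth in this was not tested.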

Other observations

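Polycomb and Trithorax group proteins keep Hox clusters silent or active. Of 24 such genes, all tested, 5 were called and 19 were not, and the median log2 fold change was 0.002. Among all tested genes, 22.9% were called in either direction, so these genes were called about as often as others. The Polycomb subunit genes Suz12 (178 ± 7.64 against 142 ± 4.75 CPM) and Phc1 (169 ± 2.99 against 136 ± 6.68 CPM) were higher in anterior cells, at adjusted p-values of 0.00934 and 0.0101 in edgeR. Phc2 (121 ± 1.95 against 203 ± 3.87 CPM) was lower, with an adjusted p-value of 7.34e-05 (SD, n = 2). Also higher was the insulator protein gene Ctcf, named after its value was seen (log2 fold change 0.24, adjusted p-value 0.0208), so that 3 genes were higher and 2 lower.

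The HoxA locus also holds the transcripts Mira and Mir196b, named after their values were seen. Mira measured 11.9 and 9.95 CPM in anterior against 7.57 and 8.4 CPM in central libraries (edgeR adjusted p-value 0.114). Mir196b had 34 and 10 counts against 20 and 31, which overlap. All of its bases lie within a Hoxa9 exon of GENCODE M21.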
